A study of Mus musculus with 12 samples.

Results

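The 10 genes described here are Nfe2l2, which encodes the transcription factor NRF2, and 9 genes of the antioxidant defence that are linked to it: Gclc, Gclm, Slc7a11, Txnrd1, Srxn1, Prdx1, Gsr, Nqo1 and Cat. The rule that selects them uses their symbols and no measured value. All 10 were listed among the 38739 gene symbols of the table, and all 10 were among the 11887 genes that passed the filter on low values. RNA-seq was done on bone marrow-derived macrophages grown from wild-type (WT) and cGAS-/- mice and either left untreated (UT, media control) or stimulated with lipopolysaccharide (LPS) of E. coli, with 3 samples each of WT UT, cGAS-/- UT, WT LPS and cGAS-/- LPS. cGAS is the cytosolic DNA sensor that makes cGAMP, and the knockout was of the whole body, so the precursors in the bone marrow also lacked it. Both genotypes were on the C57BL/6J background and, by the study's methods, from male mice of 8 weeks. The WT mice were bought and the cGAS-/- line came from another laboratory, so colony and genotype cannot be told apart. The sample labels give LPS at 100 ng/mL for 1 h, whereas the methods give 150 ng/mL for 24 h, and the extraction text of the labels names neutrophils, so dose and time are uncertain. A figure legend of the study speaks of technical replicates, so the p-values below measure a spread between samples that may be technical.

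In resting cells, NRF2 is bound by KEAP1 and sent for degradation. Oxidants and electrophiles modify KEAP1, NRF2 then accumulates, pairs with a small MAF protein and binds antioxidant response elements near its target genes. These targets make and recycle glutathione, reduce thioredoxin and peroxiredoxins, and detoxify quinones. NRF2 is controlled mainly through the stability of its protein, so the level of the Nfe2l2 transcript is not a measure of NRF2 activity. In macrophages this system limits the oxidants made during activation.

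The letters that NRF2 is known to bind are shown for the members first. The RefSeq promoter table, whose source build is GRCm38.p6, held 10 promoters (250 bases before to 50 bases after a start site) for 8 members, and each was matched once in GRCm39, the build of the coordinates below. Gclc and Gsr had no entry. The core of the antioxidant response element, TGACNNNGC on either strand, was found in 5 of these 10 promoters, against 12.4% of all 32851 promoters in the table. Each line gives 29 bases of GRCm39, 5′ to 3′ on the strand that carries the motif, with the 9 matched letters in capitals.

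Nfe2l2 (chr2:75535229-75535257, minus strand, 240 bases before the start site): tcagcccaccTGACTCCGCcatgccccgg

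Gclm (chr3:122039062-122039090, minus strand, 134 bases before): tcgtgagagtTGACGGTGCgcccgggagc

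Txnrd1, second promoter (chr10:82694938-82694966, minus strand, 92 bases before): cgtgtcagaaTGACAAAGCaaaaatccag

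Srxn1 (chr2:151947462-151947490, minus strand, base 29 from the start site, in an annotated exon): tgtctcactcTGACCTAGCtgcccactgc

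Prdx1 (chr4:116542653-116542681, minus strand, 133 bases before): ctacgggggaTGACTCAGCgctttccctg

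The match of Prdx1 also holds TGACTCA, the AP-1 letters, which were found in 2 of the 10 promoters against 5.2% of all promoters. A variant of the core, TGAGNNNGC, was found in 3 of the 10 promoters against 17.6% of all, and was the match of Slc7a11, where the TGACNNNGC core was not found in the window. Srxn1 held it 158 and 45 bases before its start site, and the match at 45 overlaps TGACTCA on the other strand. Prdx1 held it at base 16 from its start site, in an annotated exon.

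Slc7a11 (chr3:50398141-50398169, plus strand, 97 bases before): aactccagctTGAGAAAGCgccaacatta

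Srxn1 (chr2:151947389-151947417, plus strand, 45 bases before): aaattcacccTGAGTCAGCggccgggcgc

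These matches are of letters only and do not show that a factor was bound, and a window without a match may have one elsewhere.

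The deposited values were taken as the mean TPM (a transcript's share of a library, corrected for its length) of a gene's transcripts. A level can therefore be compared between samples for 1 gene, but not between genes with different numbers of transcripts. Read numbers are not known, so no counting error is given. WT LPS replicate 3 stood apart, with a total of 709802 TPM where the other samples ranged from 447189 to 503156. Protein-coding genes made up 18.5% of its total, against 39.7% to 54.4% elsewhere, and 31.7% came from a ferritin pseudogene, Fth-ps3. This sample is therefore named, with the value without it, where a call of a member turns on it. Cgas, the targeted gene, ranged from 1.19 to 3.25 TPM over WT samples and from 0.0703 to 0.291 TPM over cGAS-/- samples, in the direction of the labels. Il1b, Cxcl10, Nos2, Ptgs2 and Il6 are induced by LPS in macrophages, and all 5 rose in both genotypes. They summed to 3.09 to 9.12 TPM in the UT samples, 144 to 325 in WT LPS and 888 to 1046 in cGAS-/- LPS. The cGAS-/- LPS sum was mostly Il1b, at 771 to 915 TPM. Cxcl10 went the other way, at 93.8 to 131 TPM in WT LPS and 39.7 to 45.7 TPM in cGAS-/- LPS. The calls between genotypes with LPS were higher for Il1b, Ptgs2 and Il6 in cGAS-/-, lower for Cxcl10 and absent for Nos2. The 10 listed of 12 macrophage markers summed to 26258 to 27437 TPM in WT UT, 25762 to 31462 in WT LPS, 27880 to 30175 in cGAS-/- UT and 37618 to 37942 in cGAS-/- LPS, with Lyz2 as the largest part. With LPS, Lyz2 was called higher (0.80) and C1qa (−1.47) and Ctss (−0.77) lower in cGAS-/- than in WT, against 1.36% and 1% of all genes. Without WT LPS replicate 3, 1 macrophage marker was higher and 6 were lower, against 8.28% of all genes in either direction. The 10 listed of 11 neutrophil markers summed to 154 to 225 TPM in WT UT and 68.1 to 382 in WT LPS. They summed to 71.7 to 141 TPM in cGAS-/- UT and 71.4 to 90.3 in cGAS-/- LPS. Of the 7 tested, 3 were called lower in cGAS-/- than in WT UT cells, against 1.58% of all genes. With LPS, 1 neutrophil marker was called higher and 3 lower in WT, and 1 higher in cGAS-/-. Of the macrophage markers, LPS called 1 higher and 2 lower for WT, and for cGAS-/- these were 3 and 3. Cd68 was lower in both (−1.67 and −2.12). Of all genes, LPS called 4.31% higher and 23.3% lower in WT, and 4.76% and 9.06% in cGAS-/-. The part of these markers in the members' results was not tested.

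Tests were made with limma on log2(TPM + 1) over all 12 samples. A gene was called higher or lower at a Benjamini-Hochberg adjusted p under 0.05 over the 11887 genes. The spread of a gene is shared by all groups, so WT LPS replicate 3 also enters the standard errors of comparisons between other groups. A gene not called there may still have close replicates. At low levels, such as those of Slc7a11, the log2(TPM + 1) scale makes a change look smaller.

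**Figure D1:**
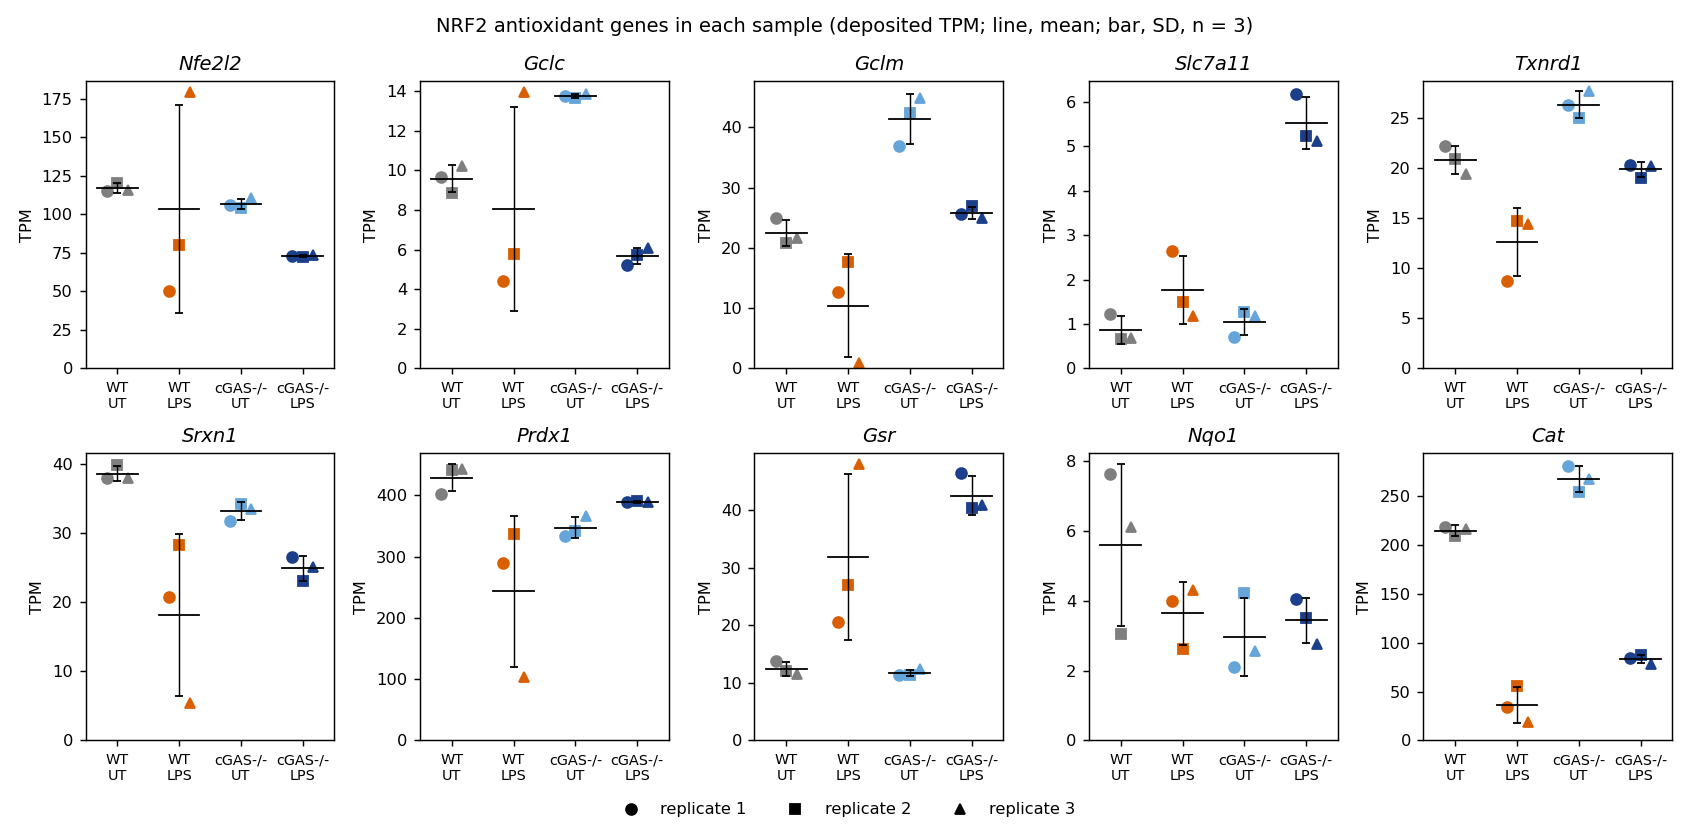
TPM (vertical axes, each starting at 0) of the 10 genes in each of the 12 samples, with the replicates as circle, square and triangle, the group mean as a line and the SD (n = 3) as a bar. Cat lies lower and Gsr higher in all LPS samples than in all UT samples of the same genotype, and the triangle of WT LPS replicate 3 stands apart from the other WT LPS samples at Nfe2l2, Gclc, Gclm, Srxn1, Prdx1 and Gsr.

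Nfe2l2 (GRCm39 chromosome 2, 75504739 to 75534985, minus strand) was at 115, 121 and 116 TPM in WT UT and at 50.5, 79.9 and 179 TPM in WT LPS. In cGAS-/- cells it was at 106, 104 and 110 TPM in UT and at 73.2, 72.5 and 73.4 TPM with LPS. The LPS samples of cGAS-/- lay below all their UT samples, whereas WT LPS lay on both sides of WT UT because replicate 3 was the highest of the 12 samples and replicates 1 and 2 were below all WT UT samples. With LPS, the log2 fold change was −0.38 in WT (standard error 0.37, limma adjusted p = 0.453) and −0.54 in cGAS-/- (standard error 0.37, adjusted p = 0.421), neither of which was called. When WT LPS replicate 3 was left out, they were −0.87 (adjusted p = 0.00228) and −0.54 (adjusted p = 0.0153), so that Nfe2l2 was called lower with LPS in both genotypes. In WT the direction turned under a pair of other alternatives, to 0.27 with TMM factors, which rescale each sample to the middle of its genes, and to 0.034 without WT LPS replicate 1. Between genotypes Nfe2l2 was not called in either treatment, with or without that sample.

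Glutathione synthesis starts with cystine, which Slc7a11 (xCT), the light chain of the cystine and glutamate exchanger, brings into the cell. Slc7a11 (chromosome 3, 49846975 to 50398070, minus strand) was at 1.23, 0.668 and 0.687 TPM in WT UT and at 2.64, 1.49 and 1.18 TPM in WT LPS. It was at 0.707, 1.26 and 1.17 TPM in cGAS-/- UT and at 6.19, 5.25 and 5.12 TPM in cGAS-/- LPS. The 3 cGAS-/- LPS samples were above the other 9 samples, and WT LPS overlapped WT UT by 1 sample on each side. Slc7a11 rose with LPS in cGAS-/- by 1.68 (standard error 0.23, limma adjusted p = 4.89e-04), and its mean was 5.27 times that of UT. In WT its log2 fold change of 0.55 was not called (adjusted p = 0.0911), and without WT LPS replicate 3 it was called at 0.71 (adjusted p = 0.0272). With LPS it was higher in cGAS-/- than in WT by 1.27 (standard error 0.23, adjusted p = 0.0172), and the mean was 3.12 times that of WT, and by 1.11 (adjusted p = 0.0112) without WT LPS replicate 3. This call was lost when any 1 of the 3 cGAS-/- LPS samples was left out, with adjusted p = 0.0931, 0.0685 and 0.0631 without replicates 1, 2 and 3. The LPS effect was larger in cGAS-/- than in WT by 1.13, and its adjusted p of 0.180 did not pass the threshold.

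Gclc and Gclm encode the catalytic and the modifier subunit of glutamate-cysteine ligase, the rate-limiting enzyme of glutathione synthesis. Gclc (chromosome 9, 77661797 to 77701770, plus strand) was at 9.66, 8.88 and 10.2 TPM in WT UT and at 4.43, 5.78 and 14.0 TPM in WT LPS. In cGAS-/- it was at 13.7, 13.7 and 13.9 TPM in UT and at 5.23, 5.71 and 6.07 TPM with LPS, so that the LPS samples were all below the UT samples in cGAS-/- but not in WT. Gclc fell with LPS in cGAS-/- by 1.15 on the log2 scale (standard error 0.32, limma adjusted p = 0.0358), a call that was lost under 12 of 22 alternatives and was at an adjusted p of 3.72e-05 without WT LPS replicate 3. In WT its log2 fold change of −0.37 was not called (adjusted p = 0.398), and it was −0.80 (adjusted p = 9.65e-04) without WT LPS replicate 3. In UT cells, where every cGAS-/- sample was above every WT sample, Gclc was 0.48 higher, not called over all samples and called without WT LPS replicate 3 (adjusted p = 0.0370).

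Gclm (chromosome 3, 122039126 to 122065061, plus strand) was at 24.9, 20.9 and 21.6 TPM in WT UT and at 12.7, 17.6 and 0.908 TPM in WT LPS. It was at 36.9, 42.5 and 44.8 TPM in cGAS-/- UT and at 25.6, 26.9 and 24.9 TPM in cGAS-/- LPS. The LPS samples lay below the UT samples in both genotypes, and the cGAS-/- samples lay above the WT samples in both treatments. None of these 4 comparisons was called over all 12 samples, where limma gave −1.57 (adjusted p = 0.0909) and −0.66 (adjusted p = 0.616) for LPS in WT and in cGAS-/-, and 0.85 (adjusted p = 1) and 1.77 (adjusted p = 0.194) between genotypes in UT and with LPS. Without WT LPS replicate 3, where Gclm was 0.0599 times the mean of replicates 1 and 2, all of them were called. The log2 fold changes were then −0.55 (limma adjusted p = 0.0186) for LPS in WT and −0.66 (adjusted p = 0.00451) for LPS in cGAS-/-. Between genotypes they were 0.85 (adjusted p = 0.00505) in UT and 0.75 (adjusted p = 0.0148) with LPS. Over 22 alternatives, the LPS change lay between −2.20 and −0.18 in WT, called under 3. In cGAS-/- it lay between −0.94 and −0.33, called under 4. The genotype difference lay between 0.75 and 0.93 in UT, called under 4, and between 0.75 and 2.39 with LPS, called under 3.

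Gsr encodes glutathione reductase, which regenerates reduced glutathione with NADPH. Gsr (chromosome 8, 34142551 to 34188192, plus strand) was at 13.7, 12.1 and 11.5 TPM in WT UT and at 20.5, 27.0 and 48.0 TPM in WT LPS. In cGAS-/- it was at 11.4, 11.3 and 12.3 TPM in UT and at 46.4, 40.3 and 40.9 TPM with LPS. Every LPS sample was above every UT sample, and within WT LPS the highest value was again that of replicate 3. Gsr rose with LPS by 1.21 in WT (standard error 0.29, limma adjusted p = 0.0111) and by 1.78 in cGAS-/- (standard error 0.29, adjusted p = 0.00155). The call in WT was lost under 2 of 22 alternatives, the 6 WT samples alone (adjusted p = 0.143) and the protein-coding total (adjusted p = 0.0514). With WT LPS replicate 3 left out, Gsr was higher in cGAS-/- LPS than in WT LPS by 0.82 (adjusted p = 0.00581) and its LPS effects differed by 0.90 (adjusted p = 0.0259), neither of which was called with that sample, where they were 0.49 (adjusted p = 0.361) and 0.57 (adjusted p = 0.631).

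Txnrd1 encodes the cytosolic thioredoxin reductase, which keeps thioredoxin reduced. Txnrd1 (chromosome 10, 82669785 to 82733546, plus strand) was at 22.2, 20.9 and 19.4 TPM in WT UT and at 8.70, 14.7 and 14.4 TPM in WT LPS. It was at 26.3, 25.1 and 27.8 TPM in cGAS-/- UT and at 20.3, 19.1 and 20.3 TPM in cGAS-/- LPS, so that LPS samples were below UT samples in both genotypes. Txnrd1 fell with LPS in WT by 0.71 on the log2 scale (standard error 0.23, limma adjusted p = 0.0419), and this call was lost without WT LPS replicate 1 (adjusted p = 0.0727) and without any 1 of the WT UT or cGAS-/- samples (adjusted p between 0.0663 and 0.128). It was lost under 14 of 22 alternatives in all, among them the 6 WT samples alone (adjusted p = 0.266) and TMM factors, where the value was −0.098 (adjusted p = 0.823). The value was −0.82 (adjusted p = 0.00604) without WT LPS replicate 3. Its change in cGAS-/- was −0.39 (adjusted p = 0.349), not called. With LPS it was 0.65 higher in cGAS-/- than in WT, not called (adjusted p = 0.184), and 0.76 higher without WT LPS replicate 3 (adjusted p = 0.0286).

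Prdx1 encodes a peroxiredoxin that reduces hydrogen peroxide, and Srxn1 encodes sulfiredoxin, which repairs peroxiredoxins that were over-oxidised. Srxn1 (chromosome 2, 151947436 to 151957687, plus strand) was at 37.9, 39.8 and 38.0 TPM in WT UT and at 20.7, 28.3 and 5.35 TPM in WT LPS. It was at 31.7, 34.2 and 33.4 TPM in cGAS-/- UT and at 26.6, 23.0 and 25.1 TPM in cGAS-/- LPS, so that LPS samples were below UT samples in both genotypes. Srxn1 fell with LPS in WT by 1.31 on the log2 scale (standard error 0.45, limma adjusted p = 0.0497), just under the threshold, and by 0.65 (adjusted p = 0.00444) without WT LPS replicate 3. Leaving out any 1 of the 3 WT UT samples or of the 6 cGAS-/- samples ended the call over 11 samples, with adjusted p between 0.0708 and 0.121, and it was lost under 14 of 22 alternatives in all, over which the value lay between −1.75 and −0.27. Its change in cGAS-/- was −0.40 (adjusted p = 0.661), and −0.40 with an adjusted p of 0.0280 without WT LPS replicate 3.

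Prdx1 (chromosome 4, 116532123 to 116558398, plus strand) was at 403, 441 and 442 TPM in WT UT and at 290, 337 and 104 TPM in WT LPS. In cGAS-/- it was at 334, 341 and 366 TPM in UT and at 389, 391 and 388 TPM with LPS. All WT LPS samples were thus below WT UT, and all cGAS-/- LPS samples were above cGAS-/- UT. The log2 fold change was −0.98 in WT (standard error 0.36, limma adjusted p = 0.0652) and 0.17 in cGAS-/- (standard error 0.36, adjusted p = 0.849), neither of them called over all 12 samples. Prdx1 was called lower in WT without WT LPS replicate 3 (−0.45, limma adjusted p = 0.00444). From the 6 cGAS-/- samples alone it was called higher in cGAS-/- (adjusted p = 0.0221). Over 22 alternatives the value in WT lay between −1.30 and −0.058 and was called under 5 of them. In cGAS-/- it lay between −0.13 and 0.50 and was called under 2. When each sample was scaled to its protein-coding total, the value in cGAS-/- was −0.13. All 3 cGAS-/- LPS samples (347, 348 and 346) then lay below all 3 UT samples (362, 372 and 404). This scaling also moved the median of all genes tested in cGAS-/-, from −0.20 to −0.38. The LPS effects on Prdx1 differed between genotypes by 1.15 (standard error 0.516, limma adjusted p = 0.446) over all samples. Without WT LPS replicate 3 they differed by 0.62 (adjusted p = 0.0234). The listed pseudogene Gm21399 shares 98.3% identity with Prdx1 over 22.3% of the Prdx1 transcript, so reads may have been split between them and the level of Prdx1 is uncertain.

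Nqo1 encodes a reductase that detoxifies quinones and is a classical NRF2 target. Nqo1 (chromosome 8, 108113835 to 108129934, minus strand) was at 7.63, 3.06 and 6.10 TPM in WT UT and at 4.0, 2.62 and 4.32 TPM in WT LPS. It was at 2.10, 4.23 and 2.55 TPM in cGAS-/- UT and at 4.05, 3.52 and 2.75 TPM in cGAS-/- LPS. The groups overlapped in all 4 comparisons and none of them was called, with or without WT LPS replicate 3, so no difference was detectable at this spread.

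Cat encodes catalase, the peroxisomal enzyme that splits hydrogen peroxide, and had the widest range of group means of the 10 genes. Cat (chromosome 2, 103284194 to 103316185, minus strand) was at 219, 209 and 217 TPM in WT UT and at 34.2, 55.7 and 18.8 TPM in WT LPS. It was at 281, 255 and 268 TPM in cGAS-/- UT and at 84.5, 87.0 and 78.8 TPM in cGAS-/- LPS. The 4 groups did not overlap, and every cGAS-/- sample was above every WT sample of the same treatment. Cat fell with LPS by 2.67 on the log2 scale in WT (standard error 0.32, limma adjusted p = 2.08e-04), where the mean of UT was 5.93 times that of LPS. In cGAS-/- it fell by 1.67 (standard error 0.32, adjusted p = 0.00512), where the mean of UT was 3.21 times that of LPS. Both calls held under all 22 alternatives. With LPS, Cat was 1.31 higher in cGAS-/- than in WT, which was not called (adjusted p = 0.0717), and 0.92 higher (adjusted p = 0.00886) without WT LPS replicate 3. In bulk RNA, fewer cells of a type and less RNA per cell cannot be told apart.

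**Figure D2:**
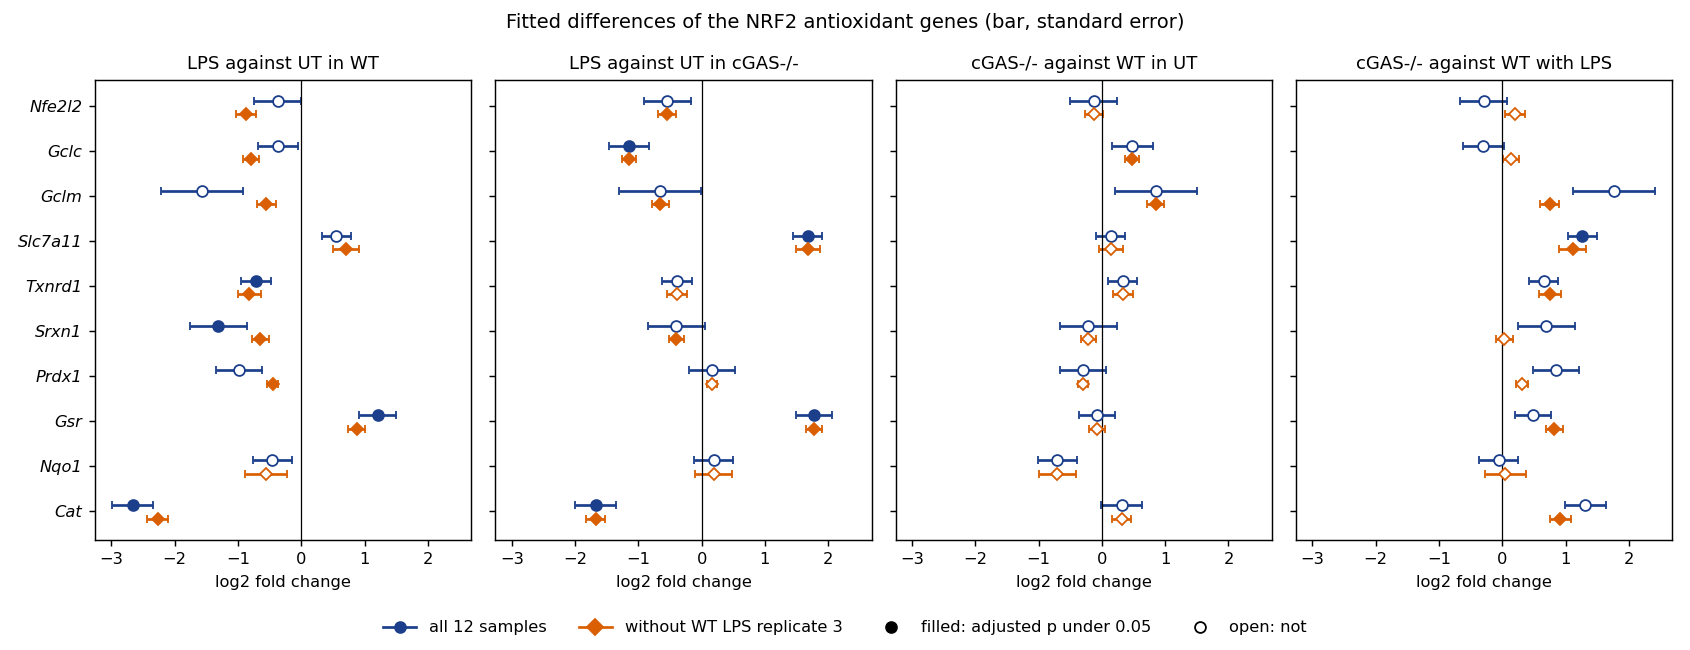
Log2 fold change (horizontal axes, on the log2(TPM + 1) scale) of each gene in 4 comparisons, with the standard error as a bar, over all 12 samples (circles) and without WT LPS replicate 3 (diamonds), filled where the adjusted p was under 0.05. Cat lies far to the left and Gsr to the right in both LPS comparisons, and Slc7a11 is the gene with a filled circle between genotypes with LPS.

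Across the 10 genes, LPS in WT cells called 4, with Gsr higher and Cat, Txnrd1 and Srxn1 lower. Of all genes tested, 27.6% were called in this comparison, 4.31% higher and 23.3% lower, so the members' share was near the background. Cat was the 1 member beyond a log2 fold change of 2 as well, against 4.32% of all genes. The median log2 fold change was −0.59 for the 10 genes and −0.46 for all genes tested. With TMM factors these medians were −0.0026 and −0.11, and Nfe2l2, Gclc and Nqo1 turned to 0.27, 0.23 and 0.09. The 3 LPS samples lay below the 3 UT samples for 5 members, which were Gclm, Txnrd1, Srxn1, Prdx1 and Cat, against 32.9% of all genes, and above them for Gsr, against 5.31%. When WT LPS replicate 3 was left out, 9 members were called, 2 higher (Slc7a11 and Gsr) against 8.26% of all genes and 7 lower against 26.5%, which is 34.7% in all. From the 6 WT samples alone, Cat was the 1 member called, against 6.02% of all genes.

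In cGAS-/- cells, LPS called 4 of the 10 genes, with Slc7a11 and Gsr higher and Gclc and Cat lower, against a background of 13.8%, of which 4.76% were higher and 9.06% lower. No member was beyond a log2 fold change of 2 as well, against 3.5% of all genes. The medians were −0.40 for the members and −0.20 for all genes tested. All LPS samples lay below the UT samples for Nfe2l2, Gclc, Gclm, Txnrd1, Srxn1 and Cat, against 40.2% of all genes, and above them for Slc7a11, Prdx1 and Gsr, against 15.5%. When only the 6 cGAS-/- samples were fitted, 9 members were called, 3 higher against 12.7% of all genes and 6 lower against 32%, which is 44.6% in all, with Nqo1 as the exception. Over the 11 samples without WT LPS replicate 3, 7 members were called, 2 higher against 9.19% of all genes and 5 lower against 21.6%, which is 30.8% in all.

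Between genotypes in UT cells, 0 of the 10 genes were called by limma and 1, Nqo1, had an unadjusted p under 0.05. In cGAS-/- cells 0.252% of all genes tested were called higher and 1.58% lower, 1.83% in all, and 0.37% were beyond a log2 fold change of 2 as well. The cGAS-/- samples lay above the WT samples for Gclc, Gclm, Txnrd1 and Cat, against 12.1% of all genes, and below them for Nfe2l2, Srxn1 and Prdx1, against 18.4%. When only these 6 samples were fitted, 6 members were called, 4 higher against 3.37% of all genes and 2 lower against 7.07%, which is 10.4% in all. Gclc by 0.48 (adjusted p = 0.00969), Gclm by 0.85 (adjusted p = 0.00635), Txnrd1 by 0.33 (adjusted p = 0.0399) and Cat by 0.32 (adjusted p = 0.0138) were higher in cGAS-/-, and Srxn1 (−0.21, adjusted p = 0.0467) and Prdx1 (−0.30, adjusted p = 0.0283) were lower. Over 11 samples without WT LPS replicate 3, Gclc and Gclm were called, both higher, against 5.33% of all genes and 1.15% higher. The 7 listed of 8 B cell markers summed to 65.9 to 98.5 TPM in WT UT and 4.55 to 11.2 TPM in cGAS-/- UT, and to 30.2 to 39.6 TPM in WT LPS and 2.74 to 7.70 TPM in cGAS-/- LPS, and their part in the genotype differences was not tested. The 7 dendritic cell markers summed to between 0.322 and 2.23 TPM. The 1 tested, Xcr1, was called higher with LPS in WT (1.08) and in cGAS-/- (0.68), at 2.14 TPM or less.

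Between genotypes with LPS, Slc7a11 was the 1 member called, higher in cGAS-/-, against 1.36% of all genes higher and 1% lower, which is 2.36% in all. No member was beyond a log2 fold change of 2 as well, against 0.614% of all genes. The medians were 0.67 for the members and 0.20 for all genes tested. All cGAS-/- LPS samples lay above all WT LPS samples for Gclm, Slc7a11, Txnrd1, Prdx1 and Cat, against 12.6% of all genes, and below them for none, against 5.17%. With WT LPS replicate 3 left out, 5 members were called, all higher in cGAS-/- (Gclm, Slc7a11, Txnrd1, Gsr and Cat), against 3.84% of all genes higher and 8.28% in all. When the 6 LPS samples alone were fitted, 0 were called, against 0.0421% of all genes. Limma called 0 members for a difference of the LPS effect between genotypes, 2 had an unadjusted p under 0.05 (Slc7a11 and Prdx1), and of all genes 0.9% were called, 0.732% with a higher effect in cGAS-/- and 0.168% with a lower one, and 0.404% were beyond 2 as well. Prdx1 and Gsr were called, both with a higher effect, when WT LPS replicate 3 was left out, against 4.56% of all genes, 2.92% of them higher. The comparisons share samples, so their values are not independent of one another.

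**Figure D3:**
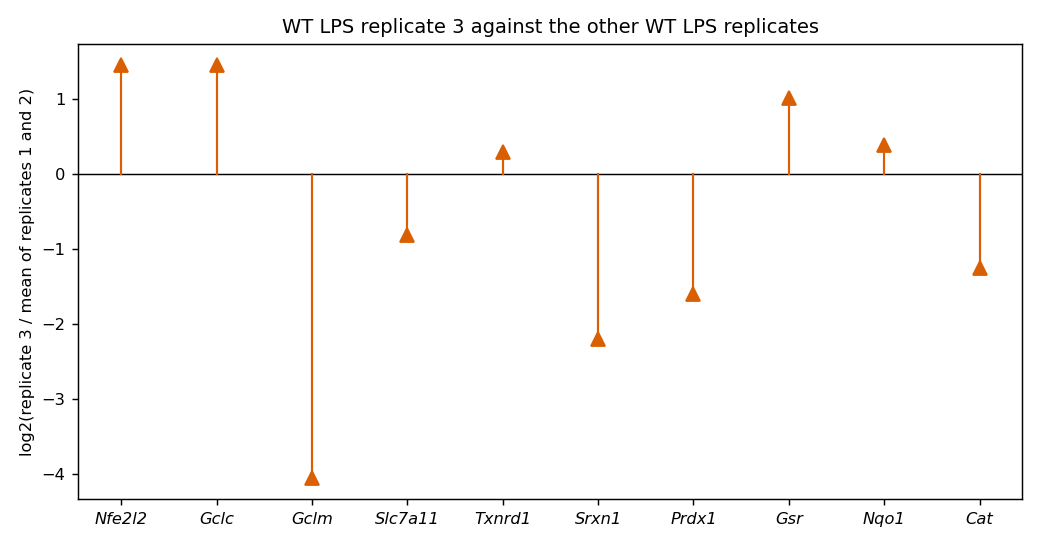
Log2 of the TPM in WT LPS replicate 3 over the mean of WT LPS replicates 1 and 2 (vertical axis) for each gene, with 0 as no difference. Nfe2l2, Gclc, Gsr, Nqo1 and Txnrd1 lie above 0 and the other 5 genes below, with Gclm the lowest.

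WT LPS replicate 3 did not differ from the other WT LPS samples by 1 factor common to the members. Its level over the mean of replicates 1 and 2 was 2.75 for Nfe2l2, 2.73 for Gclc and 2.02 for Gsr. It was 0.417 for Cat, 0.331 for Prdx1, 0.218 for Srxn1 and 0.0599 for Gclm. Dividing by a total therefore cannot align these genes with the other samples at once.

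Ratios of 2 genes within a sample do not depend on the scaling of the sample. They were chosen after the values were seen, are given without a test, and their size depends on the transcripts listed for each gene. The ratio of Gsr to Cat was 0.0529 to 0.0628 in WT UT and 0.0406 to 0.0460 in cGAS-/- UT. With LPS it was 0.599, 0.486 and 2.56 in WT and 0.463 to 0.549 in cGAS-/-, so every LPS sample was above every UT sample, WT LPS replicate 3 included. The ratio of Gclm to Gclc was 2.11 to 2.58 in WT UT, 2.68 to 3.24 in cGAS-/- UT and 4.11 to 4.89 in cGAS-/- LPS. In WT LPS it was 2.86, 3.05 and 0.0651, so only replicate 3 fell below the UT samples.

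**Figure D4:**
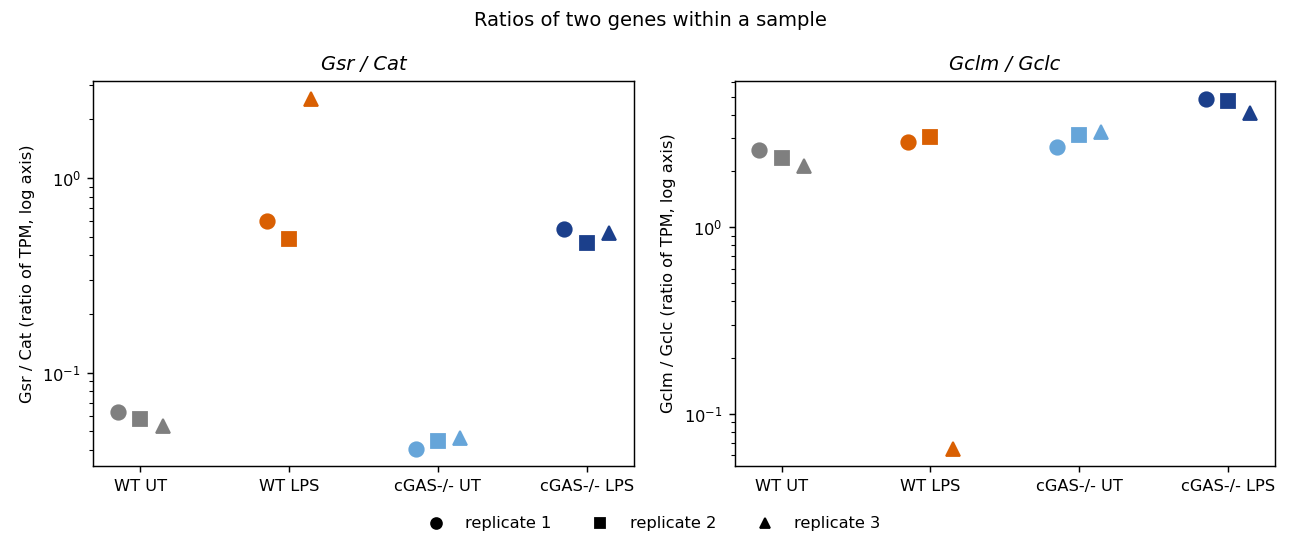
Ratio of the TPM of Gsr to Cat (left) and of Gclm to Gclc (right) in each of the 12 samples, on log axes, with the replicates as circle, square and triangle. For Gsr to Cat, the LPS samples lie between 0.463 and 2.56 and the UT samples between 0.0406 and 0.0628.

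Other genes of the pathway were described from lists, whose counts are read against the shares of all genes called, 4.31% higher and 23.3% lower for LPS in WT and 4.76% and 9.06% for LPS in cGAS-/-. For the counts without WT LPS replicate 3 these shares are 8.26% and 26.5% for WT, and 9.19% and 21.6% for cGAS-/-. The median of all genes tested for LPS in WT was −0.46 over all samples and −0.29 without that sample. Of 11 regulators of NRF2, such as its inhibitor Keap1 and its small MAF partners, 6 were listed and tested, and limma called 0 in all 5 tests. Their median for LPS was −0.11 in WT and 0.12 in cGAS-/-, where all genes had −0.46 and −0.20. At an unadjusted p under 0.05 there was 1 for LPS in WT, 1 for LPS in cGAS-/- and 2 between genotypes with LPS. Without WT LPS replicate 3 the median in WT turned to 0.30, Keap1 was called higher in WT (0.54, adjusted p = 0.0344) and Nfe2l1, a factor related to NRF2, in cGAS-/- (1.04, adjusted p = 0.00124). Of 21 other NRF2 target genes, 12 were listed and 11 tested, with medians of −0.46 for LPS in WT and −0.19 in cGAS-/-. LPS in WT called 1 higher, Me1, which makes NADPH (0.79), and 5 lower, among them Ephx1, a microsomal epoxide hydrolase (−3.17), Akr1b8, an aldo-keto reductase (−2.55), and Gstm1, a glutathione transferase (−1.59). LPS in cGAS-/- called Me1 higher (0.76) and Ephx1 (−1.58), Gstm1 (−1.08) and Ftl1, the ferritin light chain (−1.01), lower. Without WT LPS replicate 3, limma called 3 of the list higher and 6 lower for LPS in WT, and for cGAS-/- these were 2 and 5. Among these was Hmox1, the heme oxygenase, at 627, 744 and 123 TPM in WT LPS against 210 to 221 TPM in WT UT. Its log2 fold change in WT went from 0.84 (limma adjusted p = 0.238) to 1.67 (adjusted p = 7.35e-07) without that sample, and it was named after its values were seen. In cGAS-/- it was 1.02 (adjusted p = 0.266), and was called without that sample (adjusted p = 6.87e-06).

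Ephx1 stood at 12.3, 10.6 and 13.3 TPM in WT UT and at 3.64, 3.71 and 3.40 TPM in cGAS-/- UT, and at 0.27 to 0.65 TPM in the 6 LPS samples. It was lower in cGAS-/- than in WT UT cells, with a log2 fold change of −1.51 (limma adjusted p = 7.66e-04). Its LPS effects differed by 1.59 (adjusted p = 0.00977). Between genotypes with LPS it was not called (0.088, adjusted p = 0.775), at levels below the 1 TPM added on this scale. The difference of the effects therefore rests on the UT levels.

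Of 19 further genes of the glutathione system, 15 were listed and 13 tested, with medians of −0.74 for LPS in WT (−0.35 without WT LPS replicate 3) and −0.30 in cGAS-/-. LPS in WT called 0 higher and 5 lower, among them Mgst3, a microsomal glutathione transferase (−3.34), and the peroxidases Gpx3 (−1.98) and Gpx1 (−1.08). LPS in cGAS-/- called Mgst2 higher (0.61) and Mgst3 (−3.14) and Gpx3 (−1.72) lower, with Mgst2 under 1 TPM in every sample. Without WT LPS replicate 3 these counts were 0 and 4 for WT, and 2 and 6 for cGAS-/-. Gpx1 was at 465 to 497 TPM in WT UT and at 210 to 214 TPM in cGAS-/- UT, a log2 fold change of −1.20 (limma adjusted p = 0.0481). Chac1, which degrades glutathione, was higher in cGAS-/- than in WT with LPS by 0.84 (adjusted p = 0.0497). Its levels were low, at 0.314 to 0.747 TPM in WT LPS and 1.43 to 1.92 TPM in cGAS-/- LPS. Of 15 further thioredoxin, peroxiredoxin and superoxide dismutase genes, 6 were listed and tested, with medians of −0.65 for LPS in WT (0.07 without WT LPS replicate 3) and 0.18 in cGAS-/-. LPS in WT called Txnip, which binds thioredoxin (−2.01), and Txnrd3 (−1.58) lower, and LPS in cGAS-/- called Txnrd3 lower (−0.99). Sod3, the extracellular superoxide dismutase, was lower in cGAS-/- than in WT UT cells (−1.53), at 0.0422 to 0.348 against 1.74 to 2.82 TPM. Without WT LPS replicate 3, 2 of this list were higher and 2 lower with LPS in WT, and for cGAS-/- these were 1 and 1. Members of these lists beyond those counted as tested were not analysed here.

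The genes outside the members whose levels followed Nfe2l2 most closely over the 12 samples were Tmem43 (r = 0.987), Snx14 (r = 0.985) and Fli1 (r = 0.981), and those that followed Cat were Ero1b (r = 0.992), Lpl (r = 0.992) and Parp1 (r = 0.991), by Pearson's r of log2(TPM + 1). The samples share 4 group means and the composition of WT LPS replicate 3, so these are given as a description.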

How the data were processed

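The authors' processing, per the labels, used fastp, STAR and Kallisto with GRCm39, and versions are not given in the sources used here. The values the authors deposited were taken as Kallisto's TPM averaged over the transcripts of a gene symbol, a unit inferred from the values. The library kit was stranded, but how strand was counted is not given in the sources used here, so overlapping and antisense genes, which all members except Nqo1 have, may share reads. Genes with at least 1 TPM in at least 3 of 12 samples, after rescaling to a total of 1000000 for this filter only, were kept. Values were taken as log2(TPM + 1). A model with 1 mean per group over all 12 samples and a variance trend was fitted in limma 3.58.1 (R 4.3.3), two-sided, with Benjamini-Hochberg adjustment over the 11887 genes. The study's additional threshold, a log2 fold change beyond 2, was an alternative because it removes most of the members' changes. Ensembl identifiers and coordinates came from the annotation of GRCm39, and transcripts were compared by blastn 2.17.0. The model was first tested on simulated data in which a gene had the same spread in every group. WT LPS had a larger spread here, so that test does not show how the model handles it. Members, lists and tests were chosen with earlier results of these data known. The text names all members, Cgas, up to 3 called genes of each other pathway list by direction and comparison, and the 3 genes most correlated with Nfe2l2 and with Cat. Same-numbered samples did not deviate together, so the main model has no replicate block. No tool for counts was used, since the values are TPM, and the depth per sample is unknown, so no counting interval is given. One marker list is not reported here.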

Additional observations from a re-analysis of the deposited data

Results flagged for a closer look

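In the deposited TPM, Prdx1 went in opposite directions with LPS in the genotypes: the 3 WT LPS samples were all below the 3 WT UT samples, and the 3 cGAS-/- LPS samples were all above the 3 cGAS-/- UT samples. Neither change was called over all 12 samples, with −0.98 in WT (limma adjusted p = 0.0652) and 0.17 in cGAS-/- (adjusted p = 0.849). Without WT LPS replicate 3 the value in WT was −0.45 and was called (limma adjusted p = 0.00444). From the 6 cGAS-/- samples alone Prdx1 was called higher (adjusted p = 0.0221). Over 22 alternatives the value in WT lay between −1.30 and −0.058 and was called under 5 of them. In cGAS-/- it lay between −0.13 and 0.50 and was called under 2. With each sample scaled to its protein-coding total the value in cGAS-/- was −0.13, with all its LPS samples below its UT samples. This scaling also moved the median of all genes tested in cGAS-/-, from −0.20 to −0.38. The difference between the effects was 1.15 on the log2 scale, with a limma adjusted p of 0.446, and 0.62 with an adjusted p of 0.0234 without WT LPS replicate 3.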

How the results depend on the processing

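In all 22 refits, Cat fell with LPS in both genotypes and Gsr and Slc7a11 rose with LPS in cGAS-/- with an adjusted p under 0.05. For the 10 genes in the 5 comparisons, 951 of the values under an alternative kept their direction and side of the threshold, 70 passed it, 48 no longer did and 21 changed sign. The cause of each change named here was not tested, apart from the changes in samples and thresholds. LPS against UT in WT called 4 genes. It called 1 with a log2 fold change beyond 2 required as well, 1 from the 6 WT samples alone, 7 with weights per sample, 7 with TMM factors without WT LPS replicate 3 (an alternative added after the data were seen), and between 2 and 9 when 1 sample was left out, with 9 without WT LPS replicate 3 and 2 without any 1 of the WT UT or cGAS-/- samples. Its median of −0.59 became −0.0026 with TMM factors, −0.79 with weights and −0.25 with TMM factors without WT LPS replicate 3. The median of all genes tested went from −0.46 to −0.11, −0.38 and −0.045 in the same order. With TMM factors Nfe2l2 turned to 0.27, Gclc to 0.23 and Nqo1 to 0.092, and with 1 sample left out Nfe2l2 lay between −0.87 and 0.034, the latter without WT LPS replicate 1. LPS against UT in cGAS-/- called 4 genes, 0 with a log2 fold change beyond 2, 9 from the 6 samples alone, 8 with weights and between 3 and 7 when 1 sample was left out, 7 being without WT LPS replicate 3. Its median of −0.40 became −0.075 with TMM factors, with or without WT LPS replicate 3. With the protein-coding total it became −0.68, and Prdx1 turned to −0.13 and Nqo1 to −0.030. The median of all genes tested went from −0.20 to 0.002 with TMM factors and to −0.38 with the protein-coding total.

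cGAS-/- against WT in UT called 0 genes, 6 from the 6 samples alone, 5 with weights, 4 with TMM factors without WT LPS replicate 3 and between 0 and 2 when 1 sample was left out, 2 being without WT LPS replicate 3. With LPS it called 1 gene. It called 0 with a log2 fold change beyond 2, 0 with a pseudocount of 0.1, 0 from the 6 samples alone, 2 with TMM factors, 2 with the protein-coding total, 2 with weights, 5 with TMM factors without WT LPS replicate 3 and between 0 and 5 when 1 sample was left out, with 5 without WT LPS replicate 2 or 3 and 0 without any 1 of the cGAS-/- LPS samples. Its median of 0.67 became 0.45 with TMM factors, 0.48 with the protein-coding total and between 0.53 and 0.96 when 1 sample was left out. The median of all genes tested went from 0.20 to 0.11 with either of these scalings. Nfe2l2 turned to 0.21 and Gclc to 0.10 with weights. When WT LPS replicate 3 was left out, Nfe2l2 turned to 0.20, Gclc to 0.13 and Nqo1 to 0.051, and with TMM factors as well to 0.21, 0.15 and 0.049. With 1 sample left out, Nfe2l2 lay between −0.71 and 0.20, Gclc between −0.60 and 0.13 and Nqo1 between −0.23 and 0.060, and Nqo1 also turned to 0.0069 without WT LPS replicate 1. The difference of the LPS effects called 0 genes, 3 with TMM factors without WT LPS replicate 3 and between 0 and 2 when 1 sample was left out, 1 being without WT LPS replicate 2 and 2 when replicate 3 was left out. Its median of 0.78 became 0.47 with a pseudocount of 5, 0.49 with TMM factors, 0.56 with the protein-coding total and 0.55 with weights. It was 0.46 with TMM factors without WT LPS replicate 3 and between 0.52 and 0.93 when 1 sample was left out. The median of all genes tested went from 0.27 to 0.090, 0.11, 0.14 and 0.18 under the first of these in order. It was 0.045 with TMM factors without WT LPS replicate 3. Nfe2l2 turned to 0.35 with weights, 0.33 without WT LPS replicate 3 and 0.26 with TMM factors as well, and Gclm to −0.10 and −0.16 under the last pair. With 1 sample left out, Nfe2l2 lay between −0.58 and 0.33 and Gclm between −0.10 and 1.54.

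The same replicate number did not pair the samples: over 18 same-numbered pairs of groups the correlation of deviations lay between −0.03 and 0.04. With a replicate block LPS against UT in WT called 2 members, and the counts of the other comparisons were 4, 0, 1 and 0. The number of reads is unknown, and 3 samples a group with 1 of another composition limit the precision.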
